A study of Mus musculus with 12 samples.

Results

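Ppard encodes PPARβ/δ, and it was followed here together with 9 genes that lie beside it on mouse chromosome 17: Anks1, Tcp11, Scube3, Zfp523, Def6, Fance, Tead3, Fkbp5 and Srpk1. Each gene was measured by the probe set that names it alone, and where there were several, by the one with the highest mean over all arrays. All 10 genes were found among 22180 genes with a probe set of their own, and 9 of the 10 were bright enough to be tested. Def6 was below the filter on all 12 arrays.

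PPARβ/δ is a ligand-activated nuclear receptor that binds DNA as a heterodimer with RXR, and fatty acids are among its ligands. Without an agonist it can hold corepressors on its targets, and with one it raises genes of fatty acid oxidation and energy use. In liver it is present in hepatocytes and in non-parenchymal cells, where it has been tied to lipid and glucose handling and to the state of macrophages.

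Affymetrix Mouse Gene 2.0 ST arrays were used to measure total liver RNA, and their probes lie along the whole transcript. The mice were males of C57BL/6 background aged 8 to 10 weeks, either wild-type or Pparβ/δ-/- (called null here), and all had 1 week of liquid control diet before the study. They then received either the liquid control diet or the liquid ethanol diet, with 4% (v/v) ethanol, for 16 weeks, so that there were 4 groups of 3 arrays: wild-type on control or on ethanol diet, and null on control or on ethanol diet. The labels state 10 mice per group in the feeding study. Whether the 3 arrays of a group come from 3 different mice is not said, and the errors and p-values therefore cover the spread between arrays, which may be technical. The labels name the deletion for the whole animal and do not describe the allele or say whether null and wild-type mice were littermates. The 8 hepatocyte markers (Alb, Apoa1, Ttr, Cps1 and others) were above the filter on all 12 arrays.

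Values are log2 intensities, 1 per array, with the group mean ± SD (n = 3). Differences are log2 differences ± standard error with 95% confidence intervals from limma, fitted over all 14031 tested genes, and a gene is called at a limma adjusted p under 0.05. Levels of different probe sets are not comparable with each other.

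The genes were placed by the RefSeq order of GRCm38.p6. From Anks1 to Srpk1 the annotation lists 23 genes, of which 16 are protein-coding and 10 are those described here. In order they run Anks1, Tcp11, Scube3, Zfp523, Def6, Ppard, Fance, Tead3, Fkbp5 and Srpk1, with Rpl10a between Fance and Tead3 and Tulp1 between Tead3 and Fkbp5. Ppard, Anks1, Scube3, Zfp523, Def6 and Fance lie on the plus strand, and Tcp11, Tead3, Fkbp5 and Srpk1 on the minus strand. Upstream sequences are shown for 4 genes: Ppard as the disrupted gene, Zfp523 and Tead3 for the smallest genotype p-values among the 10, and Fkbp5 for its spread. They are the 250 bases before the annotated start that lies farthest upstream, 5′ to 3′ on the gene's own strand, from RefSeq's GRCm38.p6. The windows are chr17:28232504-28232753 (plus strand) for Ppard, chr17:28176946-28177195 (plus) for Zfp523, chr17:28350806-28351055 (minus) for Tead3 and chr17:28486150-28486399 (minus) for Fkbp5. Capitals mark a CCAAT box (CCAAT), a GC box (GGGCGG) or a cAMP response element (TGACGTCA) on either strand.
Ppard: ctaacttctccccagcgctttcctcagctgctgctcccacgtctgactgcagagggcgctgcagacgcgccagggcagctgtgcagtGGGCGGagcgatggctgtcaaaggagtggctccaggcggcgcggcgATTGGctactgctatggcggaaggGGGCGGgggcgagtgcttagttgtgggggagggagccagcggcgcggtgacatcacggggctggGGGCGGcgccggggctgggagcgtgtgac
Zfp523: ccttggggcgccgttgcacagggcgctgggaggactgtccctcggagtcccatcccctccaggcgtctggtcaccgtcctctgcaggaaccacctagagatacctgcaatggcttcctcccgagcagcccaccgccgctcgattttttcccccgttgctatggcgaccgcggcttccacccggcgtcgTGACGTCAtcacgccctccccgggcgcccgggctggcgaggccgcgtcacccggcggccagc
Tead3: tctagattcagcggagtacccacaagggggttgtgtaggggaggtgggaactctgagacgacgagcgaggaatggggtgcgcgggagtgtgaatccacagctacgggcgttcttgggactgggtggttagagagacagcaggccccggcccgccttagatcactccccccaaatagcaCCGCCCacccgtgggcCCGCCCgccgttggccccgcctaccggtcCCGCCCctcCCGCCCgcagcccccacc
Fkbp5: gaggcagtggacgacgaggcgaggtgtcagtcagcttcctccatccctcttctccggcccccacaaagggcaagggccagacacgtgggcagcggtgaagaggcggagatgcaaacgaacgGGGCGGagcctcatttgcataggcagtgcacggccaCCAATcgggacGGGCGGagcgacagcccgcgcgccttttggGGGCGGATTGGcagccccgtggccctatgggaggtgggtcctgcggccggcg

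The Ppard window is 69.6% G and C. It holds 3 GC boxes and, on the opposite strand, 1 CCAAT box that starts 117 bases before the gene. Fkbp5 has 2 CCAAT boxes and 3 GC boxes, and 1 of the GC boxes runs straight into a CCAAT box. Tead3 has 4 GC boxes, all on the opposite strand. Zfp523 has neither box and is the only one of the 10 with the cAMP response element, which starts 62 bases before the gene. Among 32536 windows of the same length, GC boxes are in 33%, CCAAT boxes in 33.8% and the cAMP response element in 1.56%, against 7, 3 and 1 of the 10 genes. The TATA box (TATAAA, in 12.3% of windows), the nuclear receptor half-site (AGGTCA, in 14%), the PPAR element that repeats this half-site after 1 base (in 0.0338%) and the full palindromic glucocorticoid element (AGAACA and TGTTCT with 3 bases between them, in 0.00922%) were matched in none of the 10 windows. The TEAD element (GGAATG, in 12.6%) was matched once, in Tead3 itself, and is left in lower case. A match is a description of the letters in this window only.

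Ppard, the gene disrupted in the null mice, was not lower on null arrays. Its log2 intensities (probe set 17335297) were 7.64, 8.01 and 7.68 in wild-type control, 7.96, 7.77 and 7.85 in wild-type ethanol, 7.69, 7.90 and 7.91 in null control, and 7.88, 7.93 and 8.06 in null ethanol. The groups overlapped in every pair compared, and the highest array of all was a null one. Ordered by mean they ran wild-type control (7.78 ± 0.20), null control (7.84 ± 0.13), wild-type ethanol (7.86 ± 0.10) and null ethanol (7.96 ± 0.09), and no neighbours in this order differed beyond their spread, since their arrays overlapped. The null minus wild-type difference was 0.08 ± 0.08 averaged over the diets, with an interval from -0.09 to 0.25 (limma adjusted p = 0.621), so that the interval reaches no lower than 0.938 of the wild-type level. It was 0.06 ± 0.11 on control diet and 0.10 ± 0.11 on ethanol diet. Under quantile normalization the control-diet value turned to -0.02, and without wild-type control replicate 1 to -0.01.

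Ethanol did not move Ppard past the test either. Ethanol minus control came to 0.08 ± 0.11 with the wild-type genotype and 0.12 ± 0.11 with the null one, 0.10 ± 0.08 averaged (interval -0.07 to 0.28, limma adjusted p = 0.616), and the interaction was 0.04 ± 0.16. A second probe set (17335308), which names both Ppard and the adjacent lncRNA gene 1810013A23Rik, was dim. It read 5.79, 5.56 and 6.47 in wild-type control, 5.97, 6.14 and 5.99 in wild-type ethanol, 6.05, 6.01 and 5.97 in null control, and 6.15, 6.19 and 6.56 in null ethanol. It was above the filter on 11 of 12 arrays, its widest group was wild-type control, and its genotype difference was 0.17 ± 0.14 (interval -0.13 to 0.47, limma adjusted p = 0.554 over 21618 probe sets). Neither the labels nor the probe annotation place these probes inside or outside the disrupted stretch, and the Ppard signal therefore does not test the genotype labels.

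**Figure D1:**
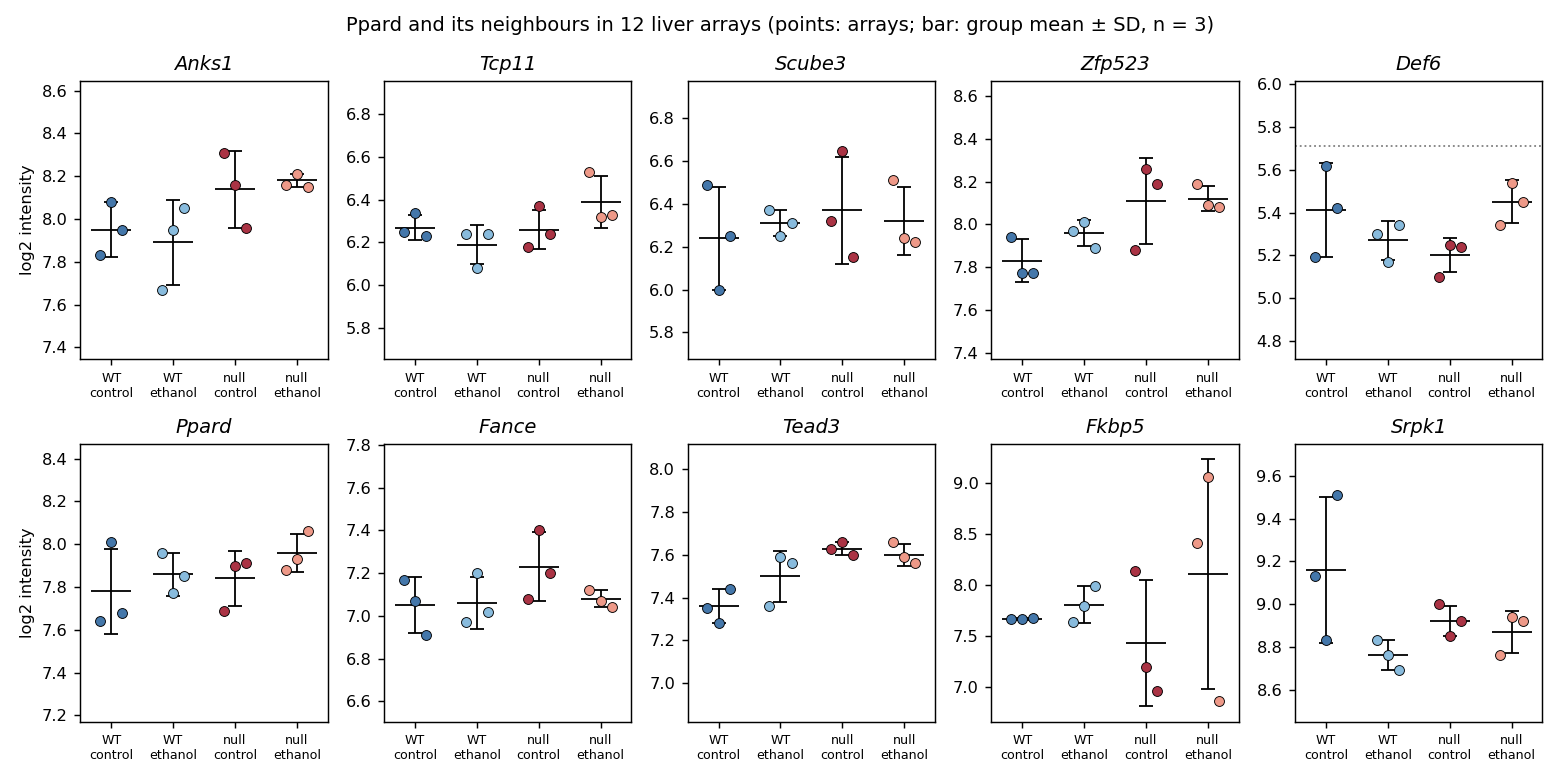
Log2 intensity (vertical axis, own scale per gene) of Ppard and its 9 neighbours in each of the 12 arrays, by group (horizontal axis; WT is wild-type), with group mean and SD as black bars and the 5.71 upper end of the filter as a dotted line for Def6. Ppard's groups overlap, Tead3's null control arrays sit above its wild-type control arrays, and Fkbp5 runs from 6.86 to 9.06 in null arrays against 7.64 to 7.99 in wild-type ones.

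None of the 9 tested genes was called between genotypes, although 8 of the 9 were on average a little higher in null liver. Averaged over the diets, limma called 0 of 9, where 7% of all tested genes were called, and 3 of the 9 had an unadjusted p under 0.05, where 21.4% of all genes did. The differences ran from -0.06 to 0.24 with a median of 0.10, against a median of -0.00 over all tested genes, of which 49.9% were positive. All 9 intervals lay within a 2-fold change in either direction. On control diet the call count was 0 of 9 (5.1% of all genes), with 2 at an unadjusted p under 0.05 (22.1% of all genes), and on ethanol diet also 0 of 9 (1.79% of all genes), with 2 at an unadjusted p under 0.05 (16.2% of all genes). On ethanol diet 9 of 9 differences were above 0, as were those of 45.5% of all genes.

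Zfp523, a zinc finger protein of the family of transcription factors that includes ZNF143, had one of the smallest genotype p-values. It read 7.94, 7.77 and 7.77 in wild-type control, 7.97, 8.01 and 7.89 in wild-type ethanol, 7.88, 8.26 and 8.19 in null control, and 8.19, 8.09 and 8.08 in null ethanol. The ethanol-diet groups did not overlap, whereas on control diet null replicate 1 lay below the highest wild-type array. The averaged difference was 0.22 ± 0.07 (interval 0.06 to 0.38, limma adjusted p = 0.0916), and it was 0.28 ± 0.10 on control diet (adjusted p = 0.134 with limma). Zfp523 was not called with all arrays, and was called only in the fit without null control replicate 1. Without it limma gave 0.28 averaged over the diets (adjusted p = 0.0229, with 6.84% of all genes called) and 0.39 on control diet (adjusted p = 0.0424, with 4.04% called). Over the fits that leave out 1 array the averaged adjusted p from limma ran from 0.0229 to 0.207.

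Tead3 is a TEAD transcription factor, a DNA-binding partner of YAP and TAZ at the end of the Hippo pathway. Its arrays read 7.35, 7.28 and 7.44 in wild-type control, 7.36, 7.59 and 7.56 in wild-type ethanol, 7.63, 7.66 and 7.60 in null control, and 7.66, 7.59 and 7.56 in null ethanol. All null control arrays were above all wild-type control arrays, and on ethanol diet the groups overlapped. The difference was 0.27 ± 0.09 on control diet (limma adjusted p = 0.0857) and 0.19 ± 0.06 averaged (interval 0.05 to 0.32, limma adjusted p = 0.0916), and the interaction of -0.17 ± 0.12 did not separate the diets (limma adjusted p = 0.519). Tead3 had a residual SD of 0.08, smaller than that of all but 7.38% of tested genes.

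Anks1 encodes an adaptor with ankyrin repeats that binds Eph receptors. It read 7.83, 8.08 and 7.95 in wild-type control, 7.67, 7.95 and 8.05 in wild-type ethanol, 8.31, 8.16 and 7.96 in null control, and 8.16, 8.21 and 8.15 in null ethanol. The ethanol-diet groups did not overlap and the control-diet groups did. The averaged difference was 0.24 ± 0.08 (interval 0.06 to 0.42, limma adjusted p = 0.115), the largest of the 9, and on ethanol diet it was 0.29 ± 0.12 (limma adjusted p = 0.255), with an interaction of 0.10 ± 0.17. A probe set shared by Anks1 and the neighbouring Nudt3 differed by -0.04 ± 0.07 between genotypes. The other probe set that names Anks1 alone was dim, at 4.70 to 5.29, and above the filter on 0 arrays.

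Tcp11, which encodes a protein of sperm development and function, read 6.25, 6.34 and 6.23 in wild-type control, 6.24, 6.08 and 6.24 in wild-type ethanol, 6.18, 6.37 and 6.24 in null control, and 6.53, 6.32 and 6.33 in null ethanol. The ethanol-diet genotypes did not overlap, and the control-diet ones did. The ethanol-diet difference was 0.20 ± 0.09 (limma adjusted p = 0.296), the average 0.10 ± 0.07 (limma adjusted p = 0.421) and the interaction 0.21 ± 0.13. With null above wild-type, Tead3 was thus 1 of 9 tested genes whose groups did not overlap on control diet (14.6% of all genes), and Anks1, Tcp11 and Zfp523 were 3 of 9 on ethanol diet (9.74% of all genes). None was so separated over both diets together (1.47%).

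Fance, a subunit of the Fanconi anaemia core complex that acts in the repair of DNA crosslinks, ranged from 6.91 to 7.40 and differed by 0.10 ± 0.07 between genotypes (interval -0.07 to 0.26, limma adjusted p = 0.504). The highest array of Fance was a null control one (7.40), while the null ethanol arrays, at 7.04 to 7.12, lay inside the wild-type ethanol range of 6.97 to 7.20. Scube3, a secreted protein with CUB and EGF-like domains, ranged from 6.00 to 6.65 and differed by 0.07 ± 0.10 (interval -0.15 to 0.29). Of the 20 genes with the nearest identifiers to this Scube3 probe set, 17 lie on the strand opposite to Scube3. For Ppard's own probe set, 20 of the 20 lie on its own strand. The files do not state on which strand the probes lie. The other Scube3 probe set, with 20 of 20 neighbours in identifier on the gene's own strand, was above the filter on 7 of 12 arrays (5.58 to 6.08) and differed by 0.05 ± 0.07 between genotypes. It also differed by 0.23 ± 0.10 on control diet and -0.13 ± 0.10 on ethanol diet, with an interaction of -0.36 ± 0.15 that did not pass (limma adjusted p = 0.294).

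Def6, known mainly from lymphocytes, read 5.10 to 5.62 over the 12 arrays, where the filter lay between 5.61 and 5.71, and was not tested. Of 10 lymphocyte markers 8 had a probe set of their own, 6 of the 8 were tested, and 0 of the 6 were called in any comparison. In bulk liver, fewer cells of a type and less RNA per cell cannot be told apart. Markers of Kupffer cells and macrophages did move with genotype: 9 of 10 were called lower in null liver averaged over the diets (median -0.54), where 3.98% of all genes were. On control diet 6 of 10 were called lower (1.89% of all genes) and on ethanol diet 1 of 10 (1.33%). Their summed intensity was 4698 to 6858 in wild-type control, 5873 to 7363 in wild-type ethanol, 2900 to 3893 in null control and 3683 to 5218 in null ethanol. None of the 10 was below the filter on all arrays. Without wild-type ethanol replicate 3, or without null ethanol replicate 1, the averaged count was 5 of 10. Of 8 endothelial markers 2 were called lower (Pecam1 at -0.37 and Tek at -0.47), and 0 of 8 stellate and 0 of 3 cholangiocyte markers were called. Their part in the values of the 10 genes was not tested.

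**Figure D2:**
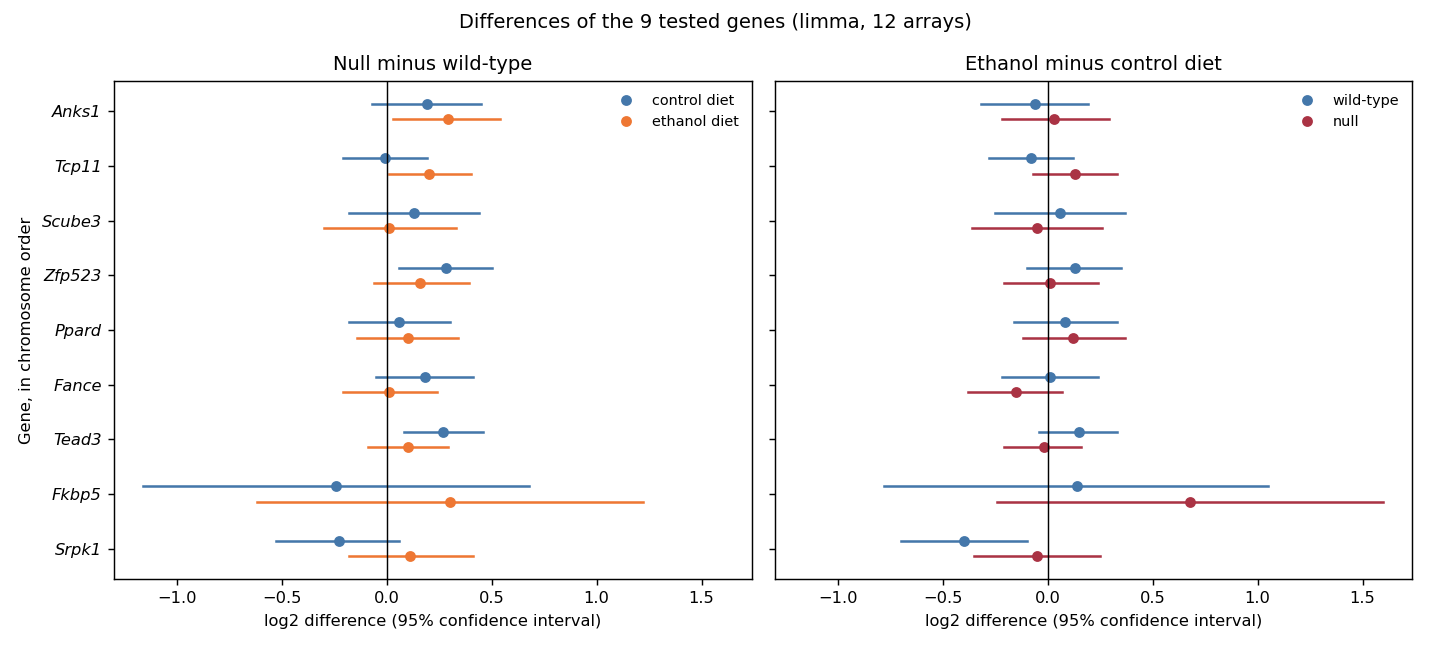
Log2 differences (horizontal axis) of the 9 tested genes (vertical axis, chromosome order) with 95% confidence intervals, null minus wild-type on each diet (left) and ethanol minus control diet in each genotype (right). The points lie between -0.40 and 0.68, Fkbp5 has the widest intervals, and Srpk1 in wild-type mice (-0.40) has the interval on the right that leaves out 0.

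With ethanol, Srpk1 was the gene that came nearest to the threshold, and in wild-type mice its interval was the only one of the 9 to leave out 0. Srpk1 encodes a kinase that phosphorylates the SR splicing factors. Its log2 intensities were 9.13, 8.83 and 9.51 in wild-type control, 8.83, 8.76 and 8.69 in wild-type ethanol, 9.0, 8.85 and 8.92 in null control, and 8.76, 8.94 and 8.92 in null ethanol. The wild-type groups did not overlap, although their closest arrays both round to 8.83, and the wild-type control arrays were spread widely. The wild-type difference was -0.40 ± 0.14 (interval -0.70 to -0.10, limma adjusted p = 0.219), the average over genotypes -0.23 ± 0.10 (limma adjusted p = 0.387), and the interaction 0.35 ± 0.19 (limma adjusted p = 0.41). These errors rest on 1 spread shared by the 4 groups. The group SDs were 0.34 and 0.07 in wild-type control and ethanol, and 0.07 and 0.10 in null control and ethanol. The error of 0.14 thus understates the spread of the wild-type control arrays, and the wild-type interval that leaves out 0 is too narrow for them. The wild-type difference depended on the wild-type control arrays. Without replicate 2 it was -0.56 with a limma adjusted p of 0.023, when 5.8% of all genes were called, and without replicate 3 it was -0.22 with a limma adjusted p of 0.561. The genotype difference of Srpk1 was -0.06 ± 0.10 averaged over the diets, and turned to 0.03 without wild-type control replicate 3.

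Across the 9 tested genes limma called 0 with ethanol in wild-type mice (0.0927% of all genes), 0 in null mice (0.00713%), 0 averaged over the genotypes (0.0143%) and 0 in the interaction (0.0143%). At an unadjusted p under 0.05 there were 1, 0, 1 and 0 genes, and the 1 was Srpk1 both times. All genes gave 14.5%, 12.2%, 12.1% and 15% at that level. Srpk1 was also the 1 of 9 whose wild-type groups did not overlap (lower with ethanol; 8.61% of all genes were).

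Fkbp5 stood apart by its spread in null mice. Fkbp5 encodes FKBP51, a co-chaperone of Hsp90 that lowers the hormone affinity of the glucocorticoid receptor and is itself induced by that receptor. Its arrays read 7.67, 7.67 and 7.68 in wild-type control, 7.64, 7.80 and 7.99 in wild-type ethanol, 8.14, 7.20 and 6.96 in null control, and 8.42, 9.06 and 6.86 in null ethanol. The 6 wild-type arrays spanned 0.36 and the 6 null arrays 2.20, with high and low arrays on both diets. Only 0.221% of tested genes had a range as wide in null arrays, and the residual SD of 0.65 was above that of 99.6% of genes (median of all 0.14). Its differences therefore had wide intervals: 0.03 ± 0.30 between genotypes (-0.62 to 0.68), 0.68 ± 0.42 with ethanol in null mice (-0.24 to 1.60, limma adjusted p = 0.521), 0.14 ± 0.42 with ethanol in wild-type mice, and 0.54 ± 0.60 for the interaction. These errors rest on 1 spread shared by the 4 groups. The group SDs were 0.01 and 0.18 in wild-type control and ethanol, and 0.62 and 1.13 in null control and ethanol. The error of 0.42 for wild-type mice thus carries the null spread and overstates that of the wild-type arrays. The same error understates the spread of the null ethanol arrays, whose SD of 1.13 lies above the residual SD of 0.65. The intervals for ethanol in null mice and for genotype on ethanol diet are therefore too narrow. Leaving out null ethanol replicate 2 gave 0.21 for the ethanol difference in null mice, and leaving out null ethanol replicate 3 gave 1.31. Between genotypes, the control-diet difference was -0.24 ± 0.42 and the ethanol-diet difference 0.30 ± 0.42, and the latter turned to -0.17 without null ethanol replicate 2.

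Of 14 listed glucocorticoid receptor targets other than Fkbp5, 13 were measured. A wider range in null than in wild-type arrays was seen in 10 of the 13, as in 50.1% of all genes. The null range far exceeded the wild-type one for Dusp1 (1.98 against 0.44) but was near it for Cdkn1a (3.37 against 3.28). Such a range also holds any diet difference, and the Dusp1 means were 11.02 in null control and 9.76 in null ethanol. Their median, with each gene centred on its own mean, was -0.45, -0.41 and -0.01 in wild-type control, 0.10, -0.38 and 0.01 in wild-type ethanol, 0.38, -0.33 and 0.09 in null control, and 0.04, 0.77 and -0.30 in null ethanol. Fkbp5 and this median were both high in null control replicate 1 and null ethanol replicate 2. Both were low in null control replicate 2 and null ethanol replicate 3. Null control replicate 3 had low Fkbp5 (6.96) and a median of 0.09, and null ethanol replicate 1 had high Fkbp5 (8.42) and a median of 0.04. The lowest medians, -0.45, -0.41 and -0.38, were in wild-type arrays with Fkbp5 at 7.67, 7.67 and 7.80. A link between the 2 was not tested. Tsc22d3 (GILZ) read 8.86, 7.69 and 8.38 in null control and 8.56, 8.92 and 7.59 in null ethanol. The 3 genes nearest to Fkbp5 in centred values over the 12 arrays, by root mean square difference, were Arhgef26 (0.291), Fam214a (0.316) and Alas1, the first enzyme of heme synthesis (0.319), against an SD of 0.612 for Fkbp5 itself. Alas1 read 12.09, 10.70 and 11.19 in null control and 12.34, 12.15 and 10.96 in null ethanol. For Ppard the nearest were Rpl35, Ankrd24 and Pidd1, each at 0.069, against an SD of 0.135 for Ppard.

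**Figure D3:**
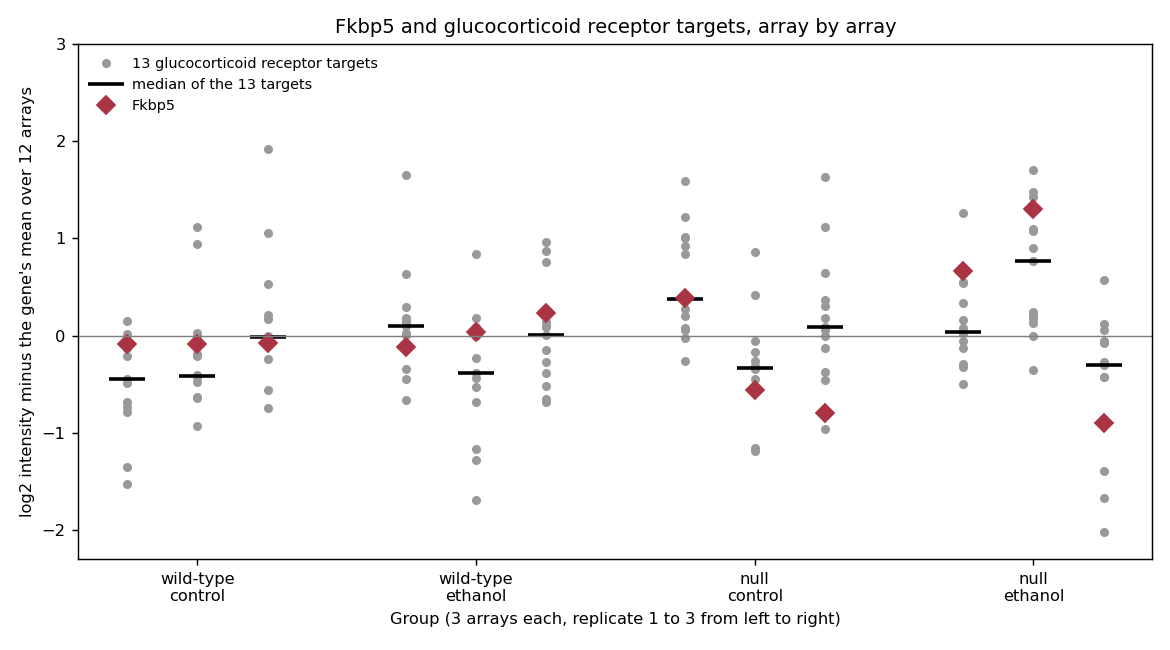
Log2 intensity minus each gene's mean over the 12 arrays (vertical axis) for Fkbp5 (diamonds), 13 glucocorticoid receptor targets (grey points) and their median (bars), array by array within the 4 groups (horizontal axis). Fkbp5 stays near 0 in wild-type control arrays and spreads over 2.20 in null arrays, and the target median is highest, at 0.77, in null ethanol replicate 2.

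Among the glucocorticoid receptor targets, 1 of 13 was called between genotypes averaged over the diets and 2 of 13 on control diet, all higher in null liver, where 7% and 5.1% of all tested genes were called. Dusp1, a phosphatase that inactivates MAP kinases, rose by 1.21 ± 0.16 (2.32-fold, limma adjusted p = 0.000681), and by 1.89 ± 0.23 on control diet (limma adjusted p = 0.000541). On ethanol diet its difference of 0.53 ± 0.23 did not pass (limma adjusted p = 0.275), and neither did the interaction of -1.36 ± 0.32 (limma adjusted p = 0.176). It read 9.0 to 9.22 in wild-type control and 10.64 to 11.41 in null control, without overlap. Sgk1, a kinase that regulates sodium transport, rose by 0.64 ± 0.17 on control diet (limma adjusted p = 0.0477), differed by 0.03 ± 0.17 on ethanol diet, and kept its control-diet call in only 3 of the 12 fits that leave out 1 array (without wild-type ethanol 1, null ethanol 1 or null ethanol 3). The median of the list was 0.04. Of the 6 measured genes for the receptor and its chaperones, 2 were called lower in null liver averaged over the diets, where 3.98% of all genes were. Hsp90aa1 fell by 0.42 (SE 0.11, limma adjusted p = 0.0334) and Stip1, the adaptor between Hsp70 and Hsp90, fell by 0.30 (SE 0.08, limma adjusted p = 0.0482). Of the 12 fits that leave out 1 array, 4 kept the Hsp90aa1 call (without wild-type control 1 or 2, null control 3 or null ethanol 1) and 2 kept the Stip1 call (without null control 3 or null ethanol 1). The receptor gene Nr3c1 read 9.52 to 9.78 in wild-type and 9.53 to 9.71 in null arrays and was not called.

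The other genes of the pathways to which the neighbours belong were described from lists, and each count averaged over the diets is to be read against the 7% of all tested genes called there. Of 13 measured PPAR isotypes, partners and coregulators, 1 rose averaged over the diets (median 0.12): Rxrg, a heterodimer partner of the PPARs, by 0.36 ± 0.07 (limma adjusted p = 0.0104), with 6.88 to 7.12 in wild-type and 7.18 to 7.68 in null arrays. The coactivator Ppargc1b rose on control diet by 0.61 ± 0.15 (limma adjusted p = 0.0349) and differed by 0.08 ± 0.15 on ethanol diet. Its control-diet call was lost when leaving out null control 1 or 2, wild-type ethanol 2, or wild-type control 2 or 3. Of 11 tested PPAR target genes (median 0.03), only Fgf21 was called: this hepatic fasting and stress hormone rose by 1.15 ± 0.19 (2.22-fold, limma adjusted p = 0.00251), by 1.17 on control and 1.13 on ethanol diet. The averaged call held without any one array, while the single-diet calls were lost in 3 and 9 of the 12 fits that leave out 1 array, with adjusted p up to 0.101 and 0.154 by limma. Fgf21 read 7.02 to 7.81 in wild-type and 8.12 to 9.10 in null arrays.

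Of 12 TEAD partners and targets (median 0.10), 1 was called (8.33%, against 7% of all genes), the paralog of Tead3. Tead2 rose by 1.0 ± 0.10 (2-fold, limma adjusted p = 7.95e-05), with 6.18, 6.05 and 6.03 in wild-type control, 5.89, 6.02 and 6.14 in wild-type ethanol, 7.05, 6.85 and 7.53 in null control, and 7.10, 6.81 and 6.99 in null ethanol. All null arrays were above all wild-type arrays, and the call held on each diet and without any one array. The wild-type arrays of Tead2, at 5.89 to 6.18, lay not far above the filter (5.61 to 5.71), so that background may limit this fold. Of 12 Fanconi anaemia genes, 11 had a probe set and 6 were tested, and 1 rose. This was Brca2, by 0.57 ± 0.09 (limma adjusted p = 0.00233) and by 0.79 ± 0.13 on ethanol diet (limma adjusted p = 0.0058), while the control-diet difference of 0.35 ± 0.13 did not pass (limma adjusted p = 0.127). Brca2 was near the filter in wild-type ethanol arrays, at 5.61 to 5.71, so that background may limit its fold there. Of 9 measured SR protein kinases and substrates 0 were called between genotypes or with ethanol, with limma, and at an unadjusted p under 0.05 there were 3 averaged over the diets. On control diet the smallest p was that of Srpk3, a paralog of Srpk1 (-0.44 ± 0.12, limma adjusted p = 0.0502). Averaged over the diets the smallest p-values were those of the splicing factors Srsf5 (0.30 ± 0.11, limma adjusted p = 0.148) and Srsf1 (-0.18 ± 0.08, limma adjusted p = 0.182). None of the 7 lists had a member called with ethanol, in either genotype, averaged, or in the interaction.

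Farther out on chromosome 17 the genotype difference was called at few genes. Counting 25 tested genes to the left of Ppard and 25 to the right, 42 are not among those described above. Averaged over the diets 1 of the 42 was called (2.38%, against 7% of all genes), 8 had an unadjusted p under 0.05 (21.4% of all genes did), 25 were positive (49.9% of all genes were), and the median was 0.02. The gene was Uhrf1bp1, a lipid transfer protein that lies 6 tested genes before Ppard. It read 7.28, 7.47 and 7.33 in wild-type control, 7.67, 7.59 and 7.40 in wild-type ethanol, 7.78, 7.90 and 7.68 in null control, and 7.73, 7.74 and 7.63 in null ethanol. The control-diet groups did not overlap, and on ethanol diet null replicate 3 lay inside the wild-type range. Uhrf1bp1 rose by 0.29 ± 0.07 (limma adjusted p = 0.0241), and by 0.43 ± 0.10 on control diet (limma adjusted p = 0.0263). Leaving out 1 array gave averaged differences from 0.25 to 0.32, and the averaged call was lost when leaving out null control 2, null ethanol 1 or 2, wild-type ethanol 3, or wild-type control 1 or 3 (limma adjusted p up to 0.0681).

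On control diet 2 of the 42 were called (4.76%, against 5.1% of all genes): Uhrf1bp1 and Bnip1, a SNARE protein of the endoplasmic reticulum 23 tested genes before Ppard, which rose by 0.40 ± 0.11 (limma adjusted p = 0.0497). Leaving out 1 array, the Bnip1 call was kept only without null control 1 and lost in the other 11 fits, and the control-diet call of Uhrf1bp1 was lost without wild-type control 1 or 3 or null control 1 or 2. On ethanol diet limma called 0 of 42, with 4 at an unadjusted p under 0.05 (16.2% of all genes). With ethanol in wild-type mice, in null mice and averaged, and in the interaction, limma called 0 of 42, with 5, 4, 3 and 6 genes at an unadjusted p under 0.05 (14.5%, 12.2%, 12.1% and 15% of all genes). Between Anks1 and Srpk1 the 5 other tested genes, among them Rpl10a, Tulp1, Clpsl2 and Clps, held no call.

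**Figure D4:**
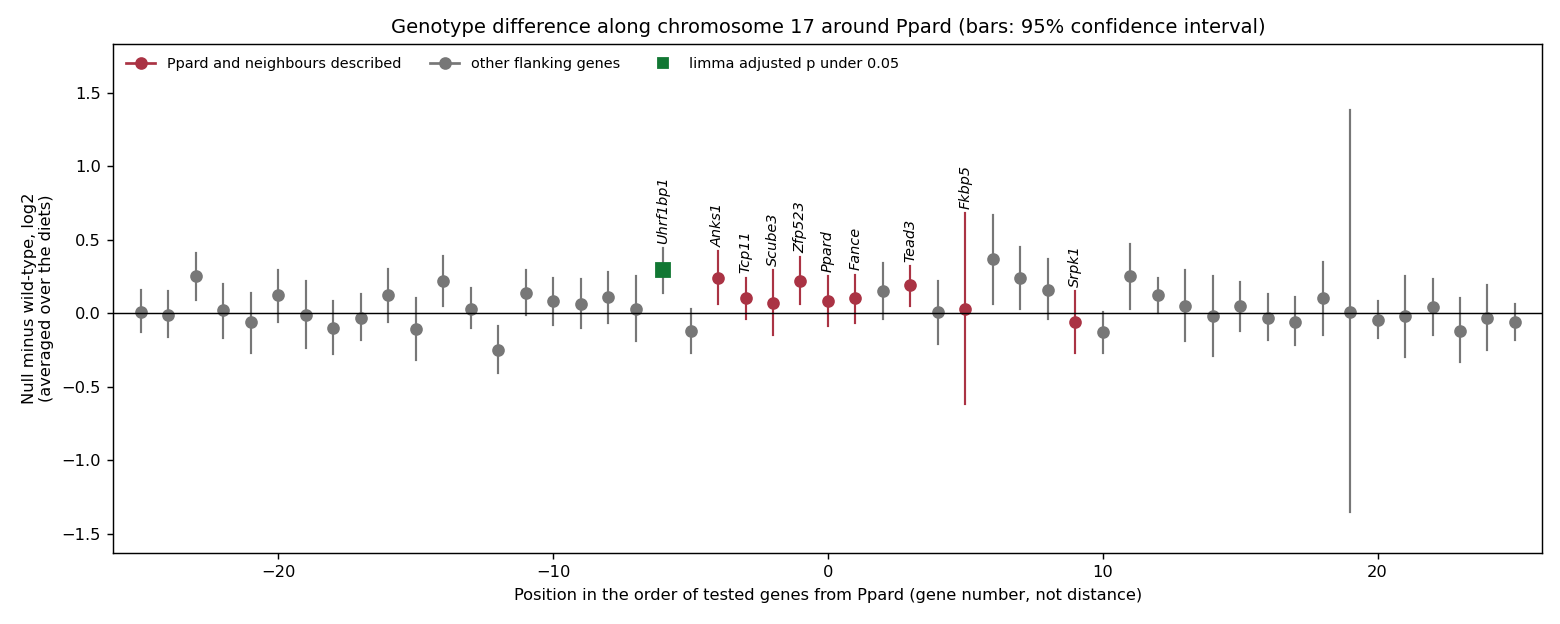
Null minus wild-type log2 difference averaged over the diets (vertical axis, with 95% confidence intervals) for Ppard and 25 tested genes on either side, by their place in the gene order (horizontal axis, gene numbers). Uhrf1bp1 (square, 0.29) is the gene called, and the 9 tested genes described above (red) run from -0.06 to 0.24; the widest interval belongs to Cdkn1a.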

How the data were processed

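Each array has 1 deposited intensity per probe set, summarised by the authors. RMA is named in the submitters' processing notes, without software or version. The deposited intensities were linear (1.816 to 20156) and were turned into log2 values, with array medians of 5.55 to 5.62.

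Of 41345 probe sets, 23521 name 1 gene, 1814 several and 16010 none. The probe set with the highest mean stood for each gene. A gene was tested if it lay above its array's 40th percentile of gene values (5.61 to 5.71) on at least 3 arrays, which left 14031 genes. Limma 3.58.1 (R 4.3.3) fitted 1 mean per group over the 12 arrays, with moderated variances and Benjamini-Hochberg adjustment over all tested genes for each of 7 contrasts. The script was tested on simulated data. The number of arrays limits the precision: the median standard error was 0.116 for a pair of groups and 0.0821 for an average. Probe sets shared with another gene were tested in a fit over 21618 probe sets.

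RefSeq GRCm38.p6 gave names (23328 probe sets matched by Entrez ID), gene order and upstream sequences. No protein sequences were used here. The 10 genes and the lists were chosen with earlier results of these data known. Besides the 10 genes, the text names members of the lists, and flanking genes, that were called, otherwise up to 2 with the smallest p, and the 3 genes nearest to Ppard and to Fkbp5. A few further list genes (Tsc22d3, Nr3c1, Cdkn1a) and genes of the span were named after their values were seen. Alternatives were no filter, the mean of a gene's probe sets, quantile normalization, median centring, a trended robust variance, the replicate number as a block, only the groups compared, and leaving out each array.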

Additional observations from a re-analysis of the deposited data

How the results depend on the processing

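In every alternative run, 0 or 1 of the 9 tested genes were called. Leaving out 1 array gave 0 to 1 for genotype on control diet and averaged over the diets, where the 1 was Zfp523 without null control replicate 1, and 0 to 1 with ethanol in wild-type mice, where it was Srpk1 without wild-type control replicate 2. All other counts were 0. Over all 63 differences of the 9 genes, 60 of 1170 alternative values had the opposite sign. They belong to 23 differences, none larger than 0.30 and none called.

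Some small differences changed sign. For Ppard, the control-diet genotype difference was -0.02 after quantile normalization and -0.01 to 0.17 leaving out 1 array, and the interaction was -0.01 with arrays centred on the median and -0.08 to 0.11 leaving out 1 array. The interaction of Zfp523 was 0.02 after quantile normalization, and that of Anks1 -0.01 to 0.18 leaving out 1 array. For Fkbp5, leaving out 1 array gave -0.17 to 0.93 on ethanol diet and -0.21 to 0.34 averaged, and for Srpk1 -0.14 to 0.03 averaged. The cause was not tested.

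Calls among the 42 flanking genes, and the alternatives for them and for the lists, were examined after seeing the data. On control diet (2 called) there were 0 without the filter, 0 after quantile normalization, 0 with only the groups compared, 1 with the mean of a gene's probe sets, 1 with median centring, and 0 to 2 leaving out 1 array. Averaged over the diets (1 called) there were 0 without the filter and 0 to 2 leaving out 1 array. Of 70 tested list genes 7 were called between genotypes averaged over the diets, where 7% of all genes were. Leaving out 1 array, 5 to 7 were called, where 4.44% to 9.42% of all genes were.

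The labels do not say what the replicate numbers mean. Arrays of the same number correlated at -0.15 to 0.19 in their deviations from the group means, with 2 of 18 pairs above 0.1. Arrays of different numbers correlated at -0.15 to 0.21, with 8 of 36 pairs above 0.1. Pairs of the same number thus did not stand out. With so few arrays per group, these correlations cannot decide whether the numbers pair the samples. With the replicate number as a block the members' count stayed 0 in all 7 contrasts, and 1, 1 and 2 of the 42 flanking genes were called on control diet, on ethanol diet and averaged.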
